A study of Homo sapiens with 8 samples.

Results

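The 41 genes described here are interferon-stimulated genes, a set of antiviral and immune genes that cells switch on when they meet interferon. They were taken by symbol from a fixed list, and all 41 were found among the 63241 gene rows of the deposited count table. The 8 libraries are labelled as HSC3, an established human line of oral squamous carcinoma cells. According to the labels, 4 received a siRNA against COL1A1 (knockdown 1 to 4) and 4 a negative-control siRNA (control 1 to 4), each with 100 pmol of siRNA and a lipid reagent for 48 hours. By these labels both groups share the transfection itself, and none of the 8 libraries is labelled as untransfected. The measurements, given below, did not follow the labels in several ways. The series concerns how loss of COL1A1, a chain of type I collagen, affects migration, invasion and epithelial-mesenchymal transition. Levels are CPM, a gene's counts scaled to a library total of 1000000.

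Interferons are secreted proteins that a cell releases after it senses foreign nucleic acid. Type I and type III interferons act through JAK1 and TYK2 to assemble a complex with STAT2 and IRF9 that binds a promoter element called the interferon-stimulated response element (ISRE). Interferon gamma, made by T and NK cells, acts through JAK1 and JAK2 on promoters with the gamma-activated sequence (GAS), and it favours chemokines such as CXCL9. Keratinocytes and carcinoma cells can mount both responses.

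Because the members varied together, the promoters of 6 of them are shown, the 6 with the highest mean CPM among the members that were matched to a RefSeq promoter and hold an ISRE core before their start. The core searched was GAAA, any 2 bases and GAAA again, on both strands, with overlapping matches allowed, and matches are in capitals. Each line gives the bases that end just before the RefSeq start, 5′ to 3′ on the gene's strand (RefSeq, GRCh38.p14): 150 bases for 5 genes and 250 for IFI6.
SAMD9, chr7:93117980-93118129, minus strand: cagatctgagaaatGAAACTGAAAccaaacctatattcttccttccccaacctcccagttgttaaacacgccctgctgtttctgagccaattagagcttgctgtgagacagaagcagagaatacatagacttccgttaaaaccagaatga
IFI27, chr14:94110586-94110735, plus strand: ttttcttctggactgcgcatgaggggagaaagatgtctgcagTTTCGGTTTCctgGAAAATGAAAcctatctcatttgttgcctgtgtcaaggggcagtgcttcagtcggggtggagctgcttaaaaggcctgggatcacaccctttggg
OAS3, chr12:112938324-112938473, plus strand: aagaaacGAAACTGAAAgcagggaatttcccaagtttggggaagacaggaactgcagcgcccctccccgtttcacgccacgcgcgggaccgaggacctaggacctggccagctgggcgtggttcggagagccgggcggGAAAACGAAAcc
PARP14, chr3:122680689-122680838, plus strand: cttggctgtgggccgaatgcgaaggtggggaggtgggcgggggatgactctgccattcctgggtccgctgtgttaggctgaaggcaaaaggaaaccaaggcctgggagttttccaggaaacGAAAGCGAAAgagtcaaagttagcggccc
BST2, chr19:17405631-17405780, minus strand: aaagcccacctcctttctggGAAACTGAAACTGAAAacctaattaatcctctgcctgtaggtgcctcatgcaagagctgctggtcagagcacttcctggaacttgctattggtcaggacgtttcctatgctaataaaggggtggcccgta
IFI6, chr1:27672193-27672442, minus strand: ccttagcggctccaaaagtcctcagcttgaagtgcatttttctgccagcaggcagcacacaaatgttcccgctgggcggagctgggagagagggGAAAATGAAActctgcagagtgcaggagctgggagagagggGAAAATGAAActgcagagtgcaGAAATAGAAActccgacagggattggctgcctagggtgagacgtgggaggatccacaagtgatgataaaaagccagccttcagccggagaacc

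IFI6 holds 3 matches, BST2 2 that overlap, and OAS3 and IFI27 2 each. A promoter window of 300 bases (250 before to 50 after the start) was matched by symbol for 34 members, and 22 of the 34 (64.7%) held an ISRE core, against 3.65% of all 27305 windows. The GAS motif TTCNNNGAA, which reads the same on both strands, was in 9 of the 34 (26.5%) and in 7.88% of all windows. These are matches of letters and describe sequence only.

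The labels of the series and its measurements did not follow each other in several ways that touch these genes. COL1A1, the siRNA target, stood at 367.6, 122.7, 300.9 and 155 CPM in knockdown 1 to 4 and at 88.95, 8183, 475.9 and 689.5 CPM in control 1 to 4 (log2 fold change -2.97, SE 1.3, edgeR adjusted p = 0.981). The lowest level was in control 1, and the libraries are therefore named here only as they are labelled. The total counts ran from 30684584 to 61795990 per library. Skeletal muscle markers (10 genes) took a summed 144901 and 146435 CPM in control 1 and control 3, 46142 in knockdown 4, 37382 in knockdown 2 and 3754 in control 2, and no more than 44.98 in the other 3. Salivary gland markers (8 genes) took 116320 CPM in control 1 and 94862 in knockdown 2, and no more than 7.921 in the other 6. Squamous keratinocyte markers (10 genes) ran from 473.2 CPM in control 1 to 153537 in knockdown 1. In bulk RNA, fewer cells of a type and less RNA per cell cannot be told apart.

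The interferon-stimulated genes were high in knockdown 1, knockdown 3 and control 2, and low in the other 5 libraries. Their summed level was 6456, 777.2, 7909 and 765.1 CPM in knockdown 1 to 4 and 578.3, 6235, 890.1 and 995.2 CPM in control 1 to 4. The lowest of the 3 high libraries was 6.27 times the highest of the other 5. Both labels thus held high and low libraries, and the groups overlapped: the knockdown mean was 3977 ± 3749 CPM and the control mean 2175 ± 2713 CPM (SD, 4 libraries each). As a share of all counts, members took 0.7909% in knockdown 3 (Wilson 95% interval 0.7881 to 0.7938) and 0.05783% in control 1 (0.05706 to 0.05861), and these intervals cover counting error only.

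For 40 of the 41 members, these 3 libraries were the 3 highest. The same was true of 2.29% of the 21192 genes tested. For 31 members each of the 3 stood over 2 times every other library, against 0.368% of genes tested. The 3 libraries were picked from these same values, so both counts are descriptions. In CPM of column totals, knockdown 3 was the highest library for 22 members, control 2 for 14 and knockdown 1 for 5. The TMM scaling factors of the fits were 0.75, 1.1 and 0.847 in these libraries. Scaling by them would raise both knockdown libraries against control 2, so the order among the 3 depends on the scaling. Control 4 was the lowest for 19 members, control 1 for 12 and knockdown 4 for 8.

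**Figure D1:**
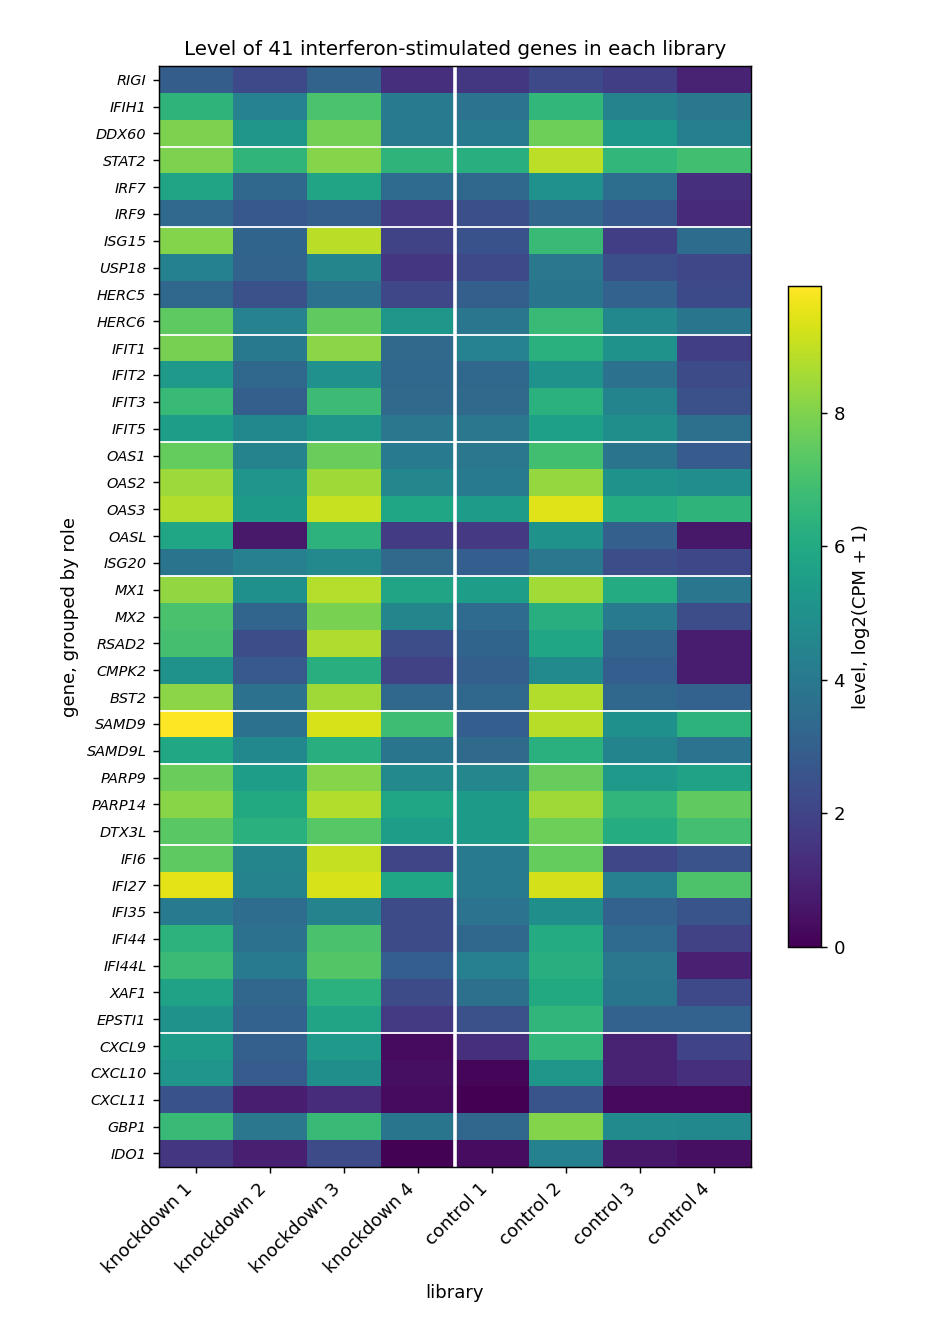
Level of each of the 41 members, as log2(CPM + 1), in the 4 libraries labelled knockdown and the 4 labelled control; rows are genes grouped by role and the white vertical line divides the labels. The columns of knockdown 1, knockdown 3 and control 2 are brighter than the other 5 for nearly all rows, with ISG20 the exception named in the text.

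Among the sensors of viral RNA, IFIH1 (MDA5) and DDX60, a helicase that aids RNA sensing, followed this pattern. IFIH1 stood at 84.52, 20.01, 136.6 and 15.57 CPM in knockdown 1 to 4 and at 12.8, 91.79, 20.25 and 14.49 in control 1 to 4. DDX60 stood at 246.3, 36.92, 226.1 and 15.98 CPM in knockdown and at 16.28, 207.9, 37.9 and 18.34 in control. For both genes the groups overlapped, with control 2 above knockdown 2 and knockdown 4. RIGI, the other cytoplasmic RNA helicase of this family, was between 0.9804 and 7.762 CPM, again highest in knockdown 3.

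Of the transcription factors, STAT2 and IRF9 are parts of the ISRE-binding complex, and IRF7 amplifies interferon production. STAT2 stood at 246.4, 86.79, 269.3 and 85.46 CPM in knockdown 1 to 4 and at 72.61, 483, 92.73 and 119.3 in control 1 to 4. IRF7 stood at 53.32, 8.799, 53.54 and 10 CPM in knockdown and at 9.025, 31.05, 10.89 and 1.538 in control. STAT2 was highest in control 2 and IRF7 in knockdown 3 and knockdown 1, and the labels overlapped for both. IRF9 spanned 1.346 to 9.369 CPM.

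ISG15 is a ubiquitin-like protein that is joined to other proteins, HERC5 is its main ligase in humans, and USP18 removes it and restrains signalling at the interferon receptor. ISG15 stood at 265.5, 8.05, 465.2 and 3.042 CPM in knockdown 1 to 4 and at 4.648, 100.9, 2.543 and 10.28 in control 1 to 4, a span of 183 times between knockdown 3 and control 3. HERC6, a relative of HERC5, stood at 174.8, 19.94, 175.3 and 36.97 CPM in knockdown and at 13.86, 102.4, 23.73 and 13.53 in control. Both were highest in knockdown 3 and knockdown 1, with control 2 the third. USP18 ran from 1.946 to 22.19 CPM, and HERC5 had the narrowest span of all members, from 3.344 CPM in knockdown 4 to 13.42 in control 2 (4.01 times).

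The IFIT proteins bind foreign RNA and hinder its translation, and their 4 genes lie together on chromosome 10, from the start of IFIT2 at 89283694 to the end of IFIT5 at 89421001 (GENCODE 29, GRCh38). IFIT1 stood at 233.8, 14.83, 290 and 9.84 CPM in knockdown 1 to 4 and at 20.03, 77.17, 31.73 and 2.538 in control 1 to 4. IFIT3 stood at 103.3, 6.876, 108.4 and 9.703 CPM in knockdown and at 9.569, 79.63, 21 and 4.441 in control. The lowest level of all 4 genes was in control 4. Across the family the spread between the highest and lowest library was uneven: 114 times for IFIT1, 24.4 for IFIT3, 10.1 for IFIT2 and 4.05 for IFIT5.

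The oligoadenylate synthetases make the second messenger that activates RNase L, and OAS1, OAS3 and OAS2 are neighbours on chromosome 12 (112906777 to 113011723). OAS3 stood at 425.1, 40.9, 529.6 and 57.04 CPM in knockdown 1 to 4 and at 42.27, 683, 68.6 and 84.82 in control 1 to 4. OAS2 stood at 344.2, 35.56, 354.2 and 22.61 CPM in knockdown and at 16.17, 319.5, 33.28 and 27.87 in control. OAS3 was highest in control 2 and OAS2 in knockdown 3, and the labels overlapped for both. OAS1 ran from 6.421 to 200.2 CPM, and OASL, which lies apart from them on the chromosome, from 0.5383 to 83.22.

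ISG20, an exonuclease of single-stranded RNA, was the 1 member that departed from the pattern. It stood at 13.14, 18.64, 24.25 and 9.785 CPM in knockdown 1 to 4 and at 6.769, 14.13, 4.249 and 3.441 in control 1 to 4. Knockdown 2 was thus its second highest library, above knockdown 1 and control 2. ISG20 was picked out after its values had been seen.

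MX1, a dynamin-like GTPase that blocks viral capsids and polymerases, stood at 315.6, 29.95, 442.4 and 54.24 CPM in knockdown 1 to 4 and at 44.04, 363.2, 67.7 and 13.9 in control 1 to 4. BST2 (tetherin), which holds budding virus at the cell surface, stood at 288.9, 12.12, 359.6 and 8.771 CPM in knockdown and at 9.134, 426.6, 9.18 and 7.613 in control. BST2 had the widest gap between the 3 high libraries and the rest: the lowest of the 3 was 23.8 times the highest of the other 5, where the median over members was 3.81. RSAD2 (viperin) and CMPK2 act on nucleotides against viruses and lie head to head on chromosome 2 (6840570 to 6898239). RSAD2 had the widest span of any member, from 0.7305 CPM in control 4 to 422.1 in knockdown 3 (578 times), and CMPK2 ran from 0.7113 to 74.77 CPM in the same 2 libraries. MX2 ran from 4.075 to 235.7 CPM, also between control 4 and knockdown 3. RSAD2, CMPK2 and MX2 were picked out after their values had been seen.

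SAMD9 and SAMD9L are adjacent paralogs on chromosome 7 (93099513 to 93148369) that restrict poxviruses and protein synthesis, and they differed from each other in the low libraries. SAMD9 stood at 950.6, 12.32, 634.6 and 111.8 CPM in knockdown 1 to 4 and at 6.796, 450.2, 30.02 and 82.62 in control 1 to 4. SAMD9L stood at 58.64, 23.33, 75.04 and 13.32 CPM in knockdown and at 9.841, 76.38, 21.31 and 12.48 in control. Knockdown 4 and control 4 were the fourth and the fifth highest libraries for SAMD9, and the sixth and the seventh for SAMD9L. The squamous keratinocyte markers summed to 100258 CPM in knockdown 4 and 46748 CPM in control 4. They summed to 1020 CPM in knockdown 2 and 473.2 CPM in control 1, the libraries where SAMD9 was lowest. Their part in the SAMD9 level was not tested.

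PARP14 and PARP9 are ADP-ribosyltransferases and DTX3L is the ubiquitin ligase that pairs with PARP9, and the 3 genes lie within 122527924 to 122730840 on chromosome 3. PARP14 stood at 277.9, 62.96, 435.8 and 55.94 CPM in knockdown 1 to 4 and at 40.53, 359.2, 90.25 and 175.5 in control 1 to 4. DTX3L stood at 161.4, 75.77, 158.1 and 46.32 CPM in knockdown and at 40.56, 207.7, 68.57 and 120.3 in control. Control 4 was the fourth highest library for all 3 genes of this group, where it was the lowest for 19 other members. It was also the fourth highest for STAT2, OAS3, ISG15 and IFI27. PARP9 ran from 22.7 to 273.3 CPM.

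IFI27 and IFI6 are small mitochondrial membrane proteins that affect cell death. IFI27 stood at 712.6, 20.34, 634.1 and 56.79 CPM in knockdown 1 to 4 and at 16.45, 615.2, 18.83 and 141 in control 1 to 4. IFI6 stood at 172.5, 21.54, 523 and 3.207 CPM in knockdown and at 15.93, 186.6, 3.35 and 4.729 in control. Among the low libraries the order of the pair differed: IFI27 was highest in control 4 and knockdown 4, and IFI6 in knockdown 2 and control 1. IFI44, IFI44L, XAF1, EPSTI1 and IFI35 spanned 2.73 to 130.7, 0.8651 to 149.3, 3.595 to 79.41, 2.193 to 89.76 and 3.974 to 29.35 CPM. EPSTI1 and IFI35 were highest in control 2 and the other 3 in knockdown 3. Per kilobase of exon (GENCODE 29), IFI6 had the highest mean level over the 8 libraries of all members, at 134 CPM per kilobase, followed by BST2 at 125 and ISG15 at 114, and CXCL11 the lowest at 0.812.

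The 5 members grouped here as interferon-gamma induced were each highest in control 2, in CPM of column totals. For CXCL10 and CXCL11 knockdown 1 was close behind. GBP1, a GTPase that attacks membranes of intracellular microbes, stood at 101, 14.18, 99.35 and 13.21 CPM in knockdown 1 to 4 and at 8.59, 263.1, 25.53 and 23.55 in control 1 to 4. CXCL9, which draws T cells through the receptor CXCR3, stood at 42.03, 7.235, 39.88 and 0.2193 CPM in knockdown and at 1.577, 93.31, 0.9304 and 2.96 in control. The other ligands of CXCR3 are CXCL10 and CXCL11, which lie beside CXCL9 on chromosome 4 (76001275 to 76041415). CXCL10 was at 36.6 CPM in control 2, 34.29 in knockdown 1, 29.07 in knockdown 3 and at most 6.322 elsewhere. IDO1, an enzyme that breaks down tryptophan, was at 19.21 CPM in control 2 and at most 3.785 elsewhere. CXCL11 had no count in control 1, which allows up to 0.0816 CPM, and reached 4.936 CPM in control 2 and 4.701 in knockdown 1. These levels are not scaled by the TMM factors of the fits, 0.847 in knockdown 1 and 1.1 in control 2. That scaling would raise knockdown 1 against control 2, and would put it above control 2 for CXCL10 and CXCL11. CXCL10, CXCL11 and IDO1 were picked out after their values had been seen. The 5 genes took 6.69% of all member counts in control 2, and between 1.82% and 3.78% in the other libraries. T and NK cell markers (7 genes) summed to 124.9 CPM in control 2 and to between 10.4 and 23.01 in the other 7. The gene of interferon gamma itself, IFNG, did not single out control 2. It had 16 counts there and in knockdown 1, 14 in control 3, 9 in knockdown 4 and 0 elsewhere. The part of these cells or of IFNG in the levels of the 5 genes was not tested.

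**Figure D2:**
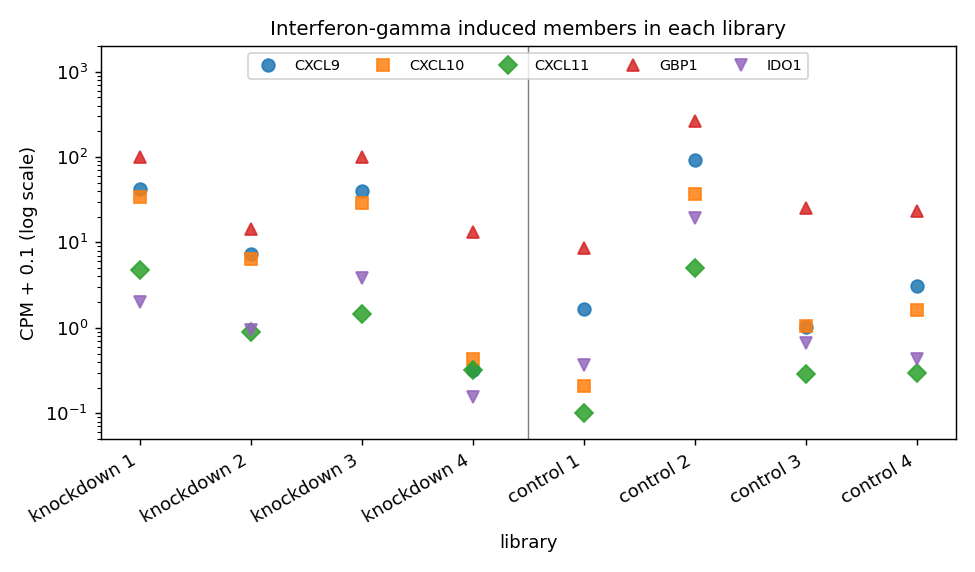
Level of the 5 interferon-gamma induced members in each library, as CPM + 0.1 on a log scale, with one symbol per gene; the vertical line divides the labels. All 5 symbols peak in control 2 in CPM of column totals, and knockdown 1 and knockdown 3 hold the next highest levels. With the TMM factors of the fits, CXCL10 and CXCL11 would not peak in control 2.

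The members were tightly linked across the 8 libraries. Over the 820 pairs of members, the median Pearson correlation of log2(CPM + 1) was 0.86 (range 0.38 to 0.99) and the median Spearman correlation 0.76, given as descriptions over 8 libraries with no p. In 576 pairs it was over 0.8, and in 0 pairs was it below 0. All these pairs share the same 3 high and 5 low libraries. The median Pearson correlation was 0.95 within the knockdown label and 0.87 within the control label (4 libraries each). It was 0.80 without knockdown 3 and control 2, the 2 libraries farthest from the median. Knockdown 1 then remained as the only high library, so this value still holds the contrast of high and low libraries. Against the mean of the other members, 30 of 41 members had a correlation over 0.9, led by IFIH1, BST2, DDX60 and OAS2 at 0.99. The lowest were ISG20 at 0.67, SAMD9 at 0.80, and IRF9 and DTX3L at 0.81. By Spearman correlation the lowest were SAMD9 and IFI27 at 0.55 and OAS3 at 0.57. Of the 21151 other genes tested, 0.26% had a correlation over 0.9 with the member mean, and their median was -0.19.

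**Figure D3:**
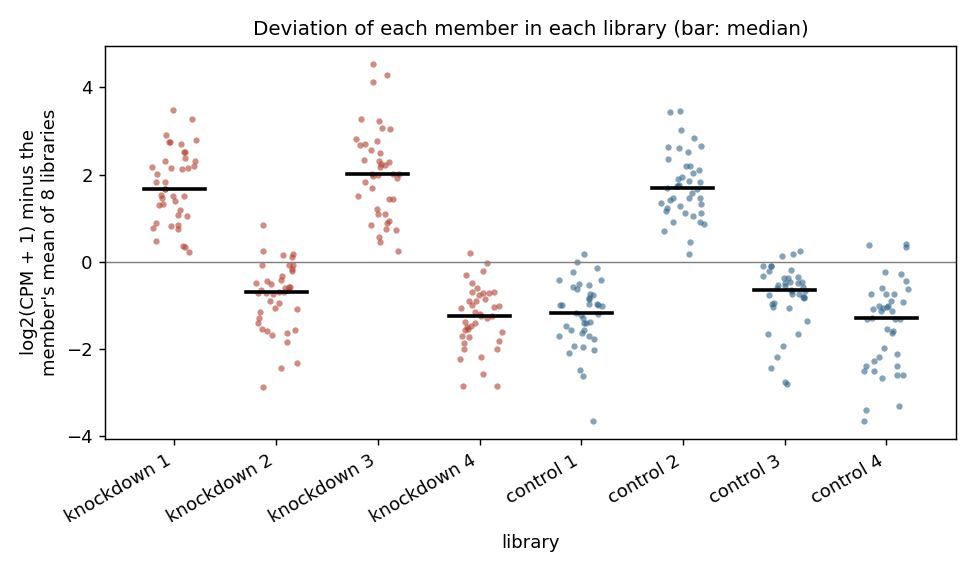
Deviation of each member in each library from its own mean over the 8 libraries, in log2(CPM + 1); each point is 1 of the 41 members and the black bar is their median. All points of knockdown 1, knockdown 3 and control 2 lie above 0, with medians of 1.68, 2.02 and 1.69, and the medians of the other 5 libraries lie between -1.28 and -0.64.

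The 5 other genes whose profile was nearest the member mean, among those with a symbol and a mean of at least 1 CPM, were SEMA7A, TRIM21, USP35, GBP5 and SP110, with Pearson correlations of 0.992, 0.991, 0.991, 0.989 and 0.989 over the 8 libraries. SEMA7A, a membrane-anchored semaphorin, stood at 16.3, 3.55, 19.9 and 2.63 CPM in knockdown 1 to 4 and at 1.9, 17.9, 2.64 and 2.11 in control 1 to 4. GBP5, a paralog of GBP1, stood at 72.5, 4.63, 69.1 and 1.92 CPM in knockdown and at 2.28, 67.6, 2.61 and 2.65 in control. Both had knockdown 1, knockdown 3 and control 2 as their 3 highest libraries.

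The rest of the pathway moved with the members only in part. Interferon genes themselves were hardly counted: of 10 ligands, IFNA2 and IFNW1 had no count in any library, IFNB1 had 2 counts in control 1, 8 in control 2 and 0 elsewhere, and IFNG had at most 16 counts in a library. IFNE, an epithelial type I interferon, stood at 0.4651, 0.1955, 0.576 and 0.2193 CPM in knockdown 1 to 4 and at 0.1631, 3.091, 0.06203 and 2.134 in control 1 to 4. It was thus high in control 4 as well, where the members were low. IFNK, a keratinocyte interferon, was at most 1.023 CPM, in control 3. For 0 of the 10 ligands were knockdown 1, knockdown 3 and control 2 the 3 highest libraries. Only 2 of the 10, IFNE and IFNK, passed the filter on low counts. The rest had too few counts to give an order of libraries.

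Between its highest and lowest library a receptor gene varied from 2.72 times (IFNAR1) to 6.17 times (IFNGR1) over 6 genes, where the median of members was 30.6 times and the lowest 4.01. IFNAR1, of the type I receptor, stood at 34.73, 87.41, 32.17 and 43.17 CPM in knockdown 1 to 4 and at 45.45, 63.63, 57.07 and 61.25 in control 1 to 4, and was lowest in knockdown 3 and knockdown 1. IFNGR1, of the interferon gamma receptor, stood at 103.4, 64.46, 163.5 and 40.98 CPM in knockdown and at 26.5, 97.84, 62.53 and 136.8 in control. Its highest libraries were knockdown 3 and control 4. Of the 6 receptor genes, 1 had knockdown 1, knockdown 3 and control 2 highest: IFNGR2, the other chain of that receptor, named after its values had been seen, at 44.95, 66.6 and 55.86 CPM in those 3 and at most 43.51 elsewhere.

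STAT3, a transducer that serves many cytokines, had the same 3 highest libraries as the members over a narrow span, 211.8 to 639.4 CPM. SOCS3, an inhibitor of cytokine receptors, did not: it was at 793.6 CPM in control 3 and at most 86.69 elsewhere. TRIM25, the ubiquitin ligase that activates RIGI, ran from 41.4 CPM in control 1 to 181.6 in control 2.

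Of 18 genes of nucleic acid sensing, 4 had those 3 libraries highest. MAVS, the adaptor below RIGI and IFIH1, stood at 133.4, 200.5, 271.3 and 202.3 CPM in knockdown 1 to 4 and at 238.9, 151.6, 214.5 and 144 in control 1 to 4. IFI16, a DNA sensor, stood at 162.5, 39.56, 144.1 and 47.77 CPM in knockdown and at 23, 190.6, 118.5 and 179.3 in control. Neither had the order of the members: MAVS was lowest in knockdown 1, and control 4 was the second highest library for IFI16. Of 33 further interferon-stimulated genes, 21 had the 3 libraries highest. The 2 of these 33 with the most counts were ADAR, an RNA-editing enzyme, at 159.8 to 690.7 CPM, and LGALS3BP, a secreted glycoprotein, at 145.3 to 751.3 CPM.

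Levels of other cell types differed between the 3 high libraries. Leukocyte markers (4 genes) summed to 73.47, 117, 98.28 and 38.95 CPM in knockdown 1 to 4 and to 69.24, 365.5, 96.83 and 155.2 in control 1 to 4. They were highest in control 2, and in knockdown 1 and knockdown 3 they lay below knockdown 2 and control 4. The part of any of these cell types in the member levels was not tested. Macrophage markers (6 genes, of which CD68 was at 0.33 CPM or less) summed to 488.2 CPM in control 2, 224.8 in control 4 and 23.93 to 119.9 elsewhere. Plasmacytoid dendritic cell markers (4 genes) summed to between 31.24 CPM in knockdown 3 and 139.8 in control 2, of which TCF4, a gene of many cell types, gave 30.86 and 138.9. The more specific CLEC4C was at most 0.38 CPM and LILRA4 at most 0.73. Squamous keratinocyte markers were at 153537 and 113713 CPM in knockdown 1 and knockdown 3 and 63490 in control 2, and also at 100258 in knockdown 4, where members were low. The 5 low libraries included 4 with muscle markers at 37382 CPM or more and also control 4, with 32.45.

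**Figure D4:**
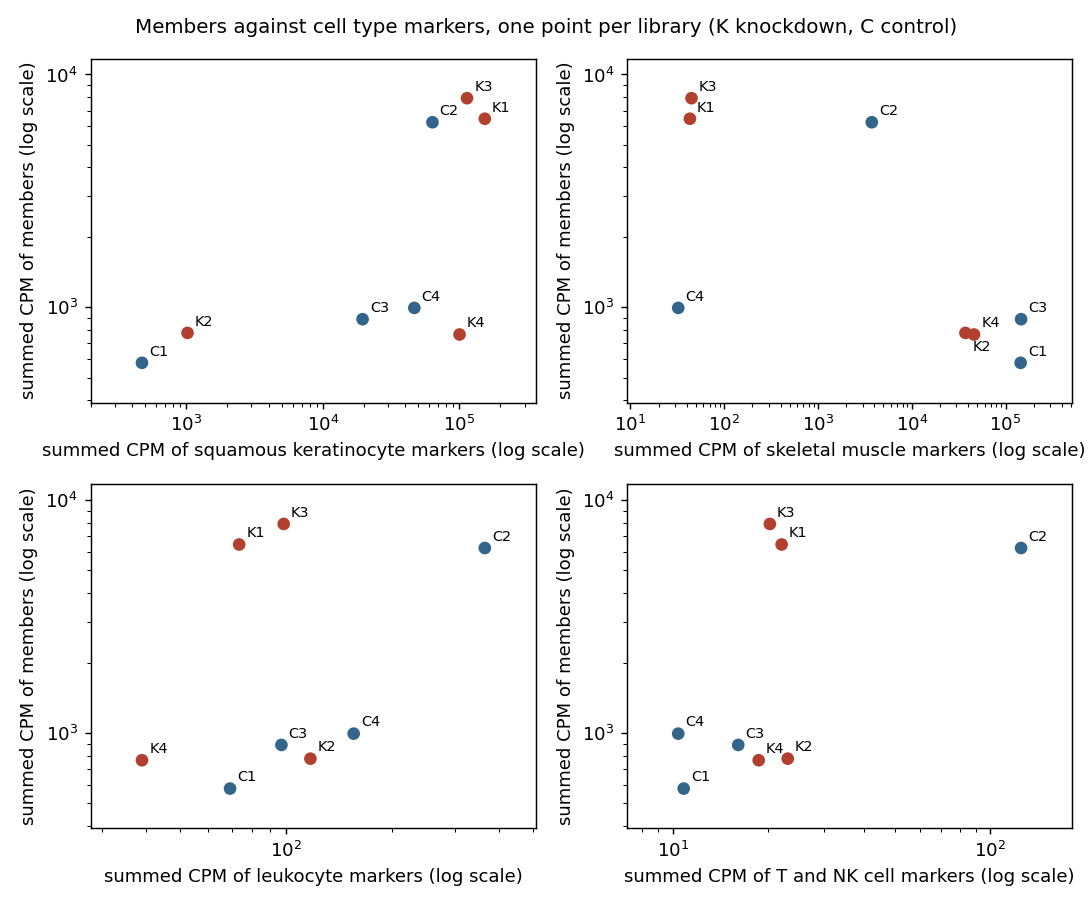
Summed CPM of the 41 members (vertical axis) against summed CPM of 4 marker lists (horizontal axes), all on log scales, with 1 point per library, labelled K for knockdown and C for control. Knockdown 1, knockdown 3 and control 2 lie at the top of every panel, while knockdown 4 lies low in the keratinocyte panel at a marker level between control 2 and knockdown 3, and control 4 lies low in the muscle panel at a marker level near knockdown 1 and knockdown 3.

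Between the labels, no member passed the test of a difference. All 41 passed the filter on low counts, and edgeR's quasi-likelihood test with Benjamini-Hochberg adjustment over all genes called 0 of 41, as it called 0% of all 21192 genes tested (smallest adjusted p = 0.981). At an unadjusted edgeR p under 0.05 stood 1013 of all genes (4.78%) and, of the members, ISG20 alone. DESeq2 called 0 members and 0.523% of the genes for which it gave an adjusted p, and limma-voom called 0 members. The labels overlapped for all 41 members, while they did not for 2.35% of all genes (0.882% higher and 1.47% lower in knockdown). Fitted values were higher in knockdown for 39 of 41 members, against 46.8% of all genes. The median log2 fold change was 1.28, against -0.05 over all genes. Only GBP1 and IDO1 were fitted lower, at -0.08 (SE 1.15) and -1.19 (SE 1.58). The members varied together, and the knockdown label held more of their high libraries than the control label. The count of 39 and the median restate that split, and the signs are not separate results. Counts of members fitted higher in the other fits are likewise not counts of separate results.

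The largest fitted differences were 3.39 for RSAD2 (SE 1.73, edgeR adjusted p = 0.981), 3.12 for ISG15 (SE 1.73, adjusted p = 0.981) and 2.48 for IFIT1 (SE 1.31, adjusted p = 0.981). These standard errors were derived from the fitted difference and the F statistic of edgeR's test, and describe the uncertainty of that difference. Leaving out each library in turn moved ISG15 from 1.99 without knockdown 3 to 5.37 without control 2, IFIT1 from 1.71 to 3.32 and RSAD2 from 1.60 to 5.00 in the same fits. STAT2 was fitted at 0.18 (SE 0.748), and below 0 in 4 of the 8 fits without a library. In all, 30 members kept their sign in the 8 fits and 11 did not.

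The median over members moved with single libraries in size, but not in sign. It was 0.75 without knockdown 3, with 31 of 41 members higher, and 2.70 without control 2, with all 41 higher. Without control 2 the labels did not overlap for 3 of 41 members, OAS1, ISG20 and CXCL11, and for 4.4% of all genes. With the skeletal muscle markers as a covariate the median was -0.38 and 11 of 41 members were fitted higher, with 0 called. With the keratinocyte markers as a covariate it was 0.66. Without the 4 libraries in which muscle or gland markers took over 1% of counts (knockdown 2, knockdown 4, control 1 and control 3), it was 1.50 with 39 higher, on 2 libraries a label. All 4 left out were low in the members. Control 4 was then the only low library, beside knockdown 1, knockdown 3 and control 2, so this median rests on it. Among the 80 other genes of the pathway, 71 were tested, edgeR called 0, and 48 were fitted higher with a median of 0.38.

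**Figure D5:**
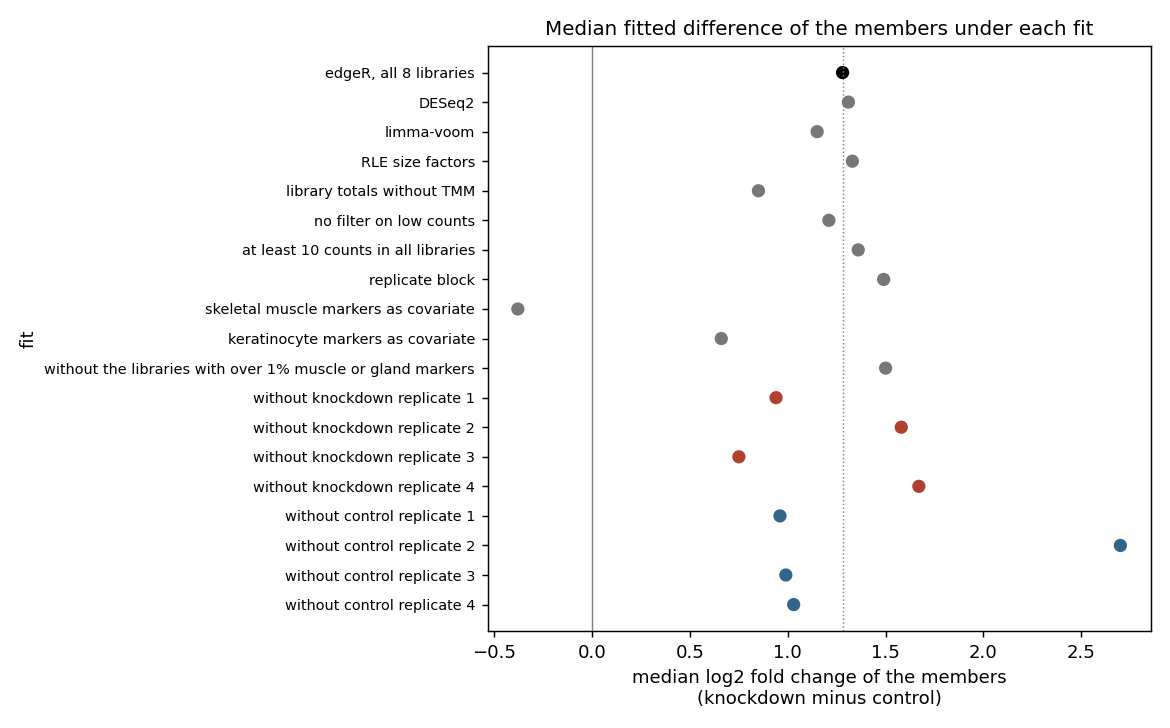
Median log2 fold change of the tested members, knockdown minus control, under each fit (black: edgeR with all 8 libraries, also the dotted line; red and blue: without 1 library; grey: other settings). The median is 1.28 with all 8 libraries, 2.70 without control 2, 0.75 without knockdown 3 and -0.38 with muscle markers as a covariate.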

How the data were processed

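The authors deposited whole-number read counts per gene, 1 column per library and not normalised. The submitters' processing notes name STAR, featureCounts, Subread and hg38; the labels and notes used here give no version, annotation or strandedness. Without a strand setting, reads from exons that overlap on opposite strands cannot be told apart. CMPK2 and RSAD2 overlap on opposite strands, as do PARP9 and DTX3L. The whole spans of 21 of 41 members, introns included, overlap some gene in GENCODE 29 on either strand. Overlap of exons alone was not counted. Columns were matched to libraries by group and number; the column names say knockout where the titles say knockdown. Symbols were matched by Ensembl identifier for 62666 of 63241 rows.

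CPM used column totals. Knockdown was compared with control in edgeR 4.0.16 (TMM factors of 0.75 to 1.19, filterByExpr, quasi-likelihood test, intercept and group, R 4.3.3), with an adjusted p under 0.05 as the threshold. Alternatives were DESeq2 1.42.0, limma-voom (limma 3.58.1), other scalings and filters, a replicate block, marker covariates and leaving out libraries. On counts simulated for this comparison with the real spread (21192 genes, 50 changed at each fold), edgeR recovered 0% of those changed 2-fold, 2% of those changed 4-fold and 80% of those changed 64-fold. The labels do not state whether replicates are separate cultures; p-values therefore reflect library-to-library spread, which may be technical.

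The members and all lists were chosen with earlier results of these data known. Given with every library are the 2 members of highest mean CPM in each of 10 role groups; of the 6 pathway lists the 2 most counted genes are named, except 1 gene that is not reported here; most others are given by range, and the rest were picked after their values were seen.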

Additional observations from a re-analysis of the deposited data

Results flagged for a closer look

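In 23 of 84 sets of 4 libraries (41 members and their sum, in each label), 1 library lay far from the other 3, by a gap to its neighbour that exceeded Dixon's 95% critical value as a share of the set's range. Chance flags about 1 in 20 sets of normally distributed values, but these were untransformed CPM, and the members are not independent. The share of flagged sets over all genes was not computed. In all 23 the library was control 2, as the highest under its label. Control 2 was already known from these same values as the high control library, so the flags restate that pattern. The gap took 0.926 of the range for the summed CPM of members, 0.996 for BST2, 0.985 for IDO1, 0.978 for CXCL9, 0.962 for CXCL10 and EPSTI1, 0.961 for CXCL11, 0.944 for OAS2, 0.934 for OAS3, 0.933 for GBP1, 0.931 for IFI6, 0.930 for OAS1 and 0.921 for ISG15. It was 0.906 for IFIH1, 0.903 for USP18, 0.887 for DDX60 and IFI44, 0.886 for STAT2, 0.885 for HERC6, 0.865 for RSAD2, 0.846 for MX1, 0.838 for XAF1 and 0.835 for PARP9. Under the knockdown label, with high levels in 2 of its 4 libraries, 0 sets were picked out.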

How the results depend on the processing

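The 0 calls among members held in every fit run, DESeq2 and those without a library included. Over all genes DESeq2 called 146 against 0 by edgeR, and the fits without a library called 0 to 1. Under other scalings, filters and tools the median of members ran from 0.85 with library totals in place of TMM (34 of 41 higher; the median of all genes was then -0.21) to 1.36 with at least 10 counts in all libraries (37 members tested). The median ran from 0.75 to 2.70 without 1 library, the number fitted higher from 31 to 41, the members without overlap from 0 to 3 (3 without control 2, where 4.4% of all genes did not overlap), and the median pairwise correlation from 0.84 to 0.90. The number fitted higher was 11 with muscle markers as a covariate. In that fit 16 of the 20 members given in full turned below 0: DDX60 -0.40, IFIH1 -0.05, STAT2 -0.52, ISG15 -0.53, IFIT1 -0.10, IFIT3 -0.62, OAS3 -1.03, OAS2 -0.60, MX1 -0.50, BST2 -1.81, SAMD9L -0.01, PARP14 -0.46, DTX3L -0.24, IFI27 -0.74, IFI6 -0.70 and CXCL9 -1.56; the cause was not tested. With keratinocyte markers STAT2 was -0.17 and OAS3 -0.11, with library totals STAT2 was -0.16 and CXCL9 -0.14, and GBP1 was 0.24 in limma-voom. Without 1 library, signs turned for STAT2 (-0.25 to 1.16), OAS3 (-0.03 to 2.40), PARP14 (-0.07 to 1.42), DTX3L (-0.01 to 0.83), GBP1 (-0.60 to 1.97) and CXCL9 (-0.27 to 3.94). With the replicate number as a block, 0 genes were called, the median was 1.49, 41 members were higher and GBP1 was 0.60; same-numbered libraries did not pair (correlation of deviations -0.64 to -0.37). Members of low count, such as CXCL11 and IDO1, are limited by depth in the low libraries.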

Other observations

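BISPR, a long noncoding RNA gene beside BST2, was not in any list and was picked out after its values had been seen. It stood at 2.59, 0.424, 1.92 and 0.247 CPM in knockdown 1 to 4 and at 0.353, 2.83, 0.279 and 0.308 in control 1 to 4. Its correlation with the member mean was 0.969 over the 8 libraries, given as a description. In CPM of column totals, without the TMM factors, its highest library was control 2, as for BST2.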
